A study of Mus musculus with 21 samples.

Results

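The comparison described here sets aggregated nephron progenitors against dispersed ones after 24 h of culture in vehicle. Its members are the 6 arrays of 21 whose titles name aggregated or dispersed progenitors and DMSO alone, 3 arrays in each group, and all 18193 genes measured on them. Nephron progenitors were sorted by fluorescence from E16.5 mouse kidneys of mixed background that carried a Six2GFPcre bacterial artificial chromosome transgene. In that transgene the regulatory sequence of Six2 drives a fusion of GFP and Cre, so the sort rests on Six2 activity and every group, the fresh cells included, carried the transgene. Aggregated samples held 40000 cells spun into a pellet and were kept in DMEM with 10% fetal bovine serum and DMSO. The labels attach that same culture text to the dispersed samples, so how the dispersed cells were plated is not given in the sources used here. Other groups of 3 arrays used for reference were cells taken straight from the sort, and aggregated or dispersed cells kept for 24 h in 4 µM BIO, an indirubin-type inhibitor of GSK3 that raises beta-catenin signalling. The labels call the arrays biological replicates without saying whether litters, sorts or cultures differed, so p-values rest on array-to-array spread that may be technical.

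Nephron progenitors form the cap mesenchyme around the ureteric bud tips of the developing kidney. They renew there under the transcription factor Six2, and Wnt signals from the bud make some of them cluster into pretubular aggregates that turn into epithelial renal vesicles. Clustering is thus both a step of the normal programme and a culture condition. The DMSO arrays bear on which transcripts differ between aggregated and dispersed cells when no Wnt agonist is added. Cell contact cannot be told apart there from other differences in how the groups were kept.

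RNA had been amplified through 2 rounds before hybridisation to 1-colour arrays, and the text gives quantile-normalised signal, a linear intensity with no unit. A group mean under 41.8, the 95th percentile of 27 unspiked bacterial control probe sets, is called below background. The 3 aggregated arrays differed from the 3 dispersed arrays in several array measures, each group lying outside the other's range, where an exact two-sided permutation test of 3 against 3 cannot go below 0.1. The ratio of the 3' to the 5' Gapdh probe sets, which rises as transcripts are shorter, was 14.2 ± 0.99 (SD, n = 3) in aggregates and 12.1 ± 0.46 (SD, n = 3) in dispersed cells (exact p = 0.1). The deposited median signal was 93.3 ± 4.1 (SD, n = 3) against 104 ± 1.9 (SD, n = 3; exact p = 0.1). Aggregated replicate 3 stood apart in 2 control signals. Its 3' beta-actin signal was 7700.5 against 11381 to 12586 on the other 5 arrays. Its 18S ribosomal RNA signal was 1128 against 2536 to 5179. Its beta-actin ratio was 11.3 against 6.22 to 8.16, and its Gapdh ratio 15.4 against 11.6 to 13.7. Over the brighter genes, aggregated replicate 1 had the lowest mean correlation with its group, 0.978, beside 0.984 and 0.981 for replicates 2 and 3. The part of these measures in the results was not tested beyond a few fits. These left out 1 array or took the Gapdh ratio or the 3' beta-actin signal as a covariate. In bulk RNA, fewer cells of a type and less RNA per cell cannot be told apart.

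Few genes passed the threshold between aggregated and dispersed cells in DMSO, though 3320 (18.2%) had an unadjusted p under 0.05 in limma's moderated test. Of 18193 genes, 477 (2.62%) passed an adjusted p of 0.05 in limma's moderated test, 334 (1.84%) higher in aggregates and 143 (0.786%) lower. Among them 61 genes were at least 2-fold higher and 48 at least 2-fold lower, and the median change was 0.60 on the log2 scale for the rises and -0.80 for the falls. The 3 aggregated arrays did not overlap the 3 dispersed arrays in any of the 477 called genes. The calls were made on these same arrays, so this adds no support to them. Of all genes tested, 27.6% did not overlap. The direction of the balance depends on scaling: the median gene changed by 0.11 after quantile normalisation and by 0.02 on the deposited scale, where 106 genes were called higher and 166 lower. Leaving out 1 array moved the count by over 1.5 times in each case, to 164, 249 and 138 without dispersed replicates 1, 2 and 3 and to 164, 306 and 215 without aggregated replicates 1, 2 and 3. With the Gapdh ratio as a covariate, 227 genes passed, 134 higher and 93 lower, and with the 3' beta-actin signal 414 passed, 255 higher and 159 lower. Of 59 called genes named here, 29 kept the call whichever array was left out: Acad10, Blvrb, Cd83, Colec11, Crym, Dancr, Dcx, Dnajb9, H3f3b, Hs3st6, Hspa1a, Hypk, Ifi202b, Igfbp5, Il33, Itga5, Jpt1, Klf4, Mss51, Mybpc1, Nell1, Nr2f1, Ooep, Pcf11, Sbspon, Scx, Tfpi2, Tmem260 and Wnt5b. The 20 that lost it without aggregated replicate 3 were Abcc9, Acss2, Adipoq, Agtr2, Amy1, Bcl9, Cdhr1, Chaf1b, Col18a1, Esrp2, Ier2, Igfbp4, Meis1, Mir99ahg, Mvd, Plce1, Ptpro, Snord89, Tacr3 and Tk1. The spread was pooled over all 21 arrays. With only the 6 arrays in the fit, 6 genes passed the same threshold: Cd83, Cdhr1, Blvrb, Tafa1 and 9530002B09Rik were higher and Pcf11 was lower.

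**Figure D1:**
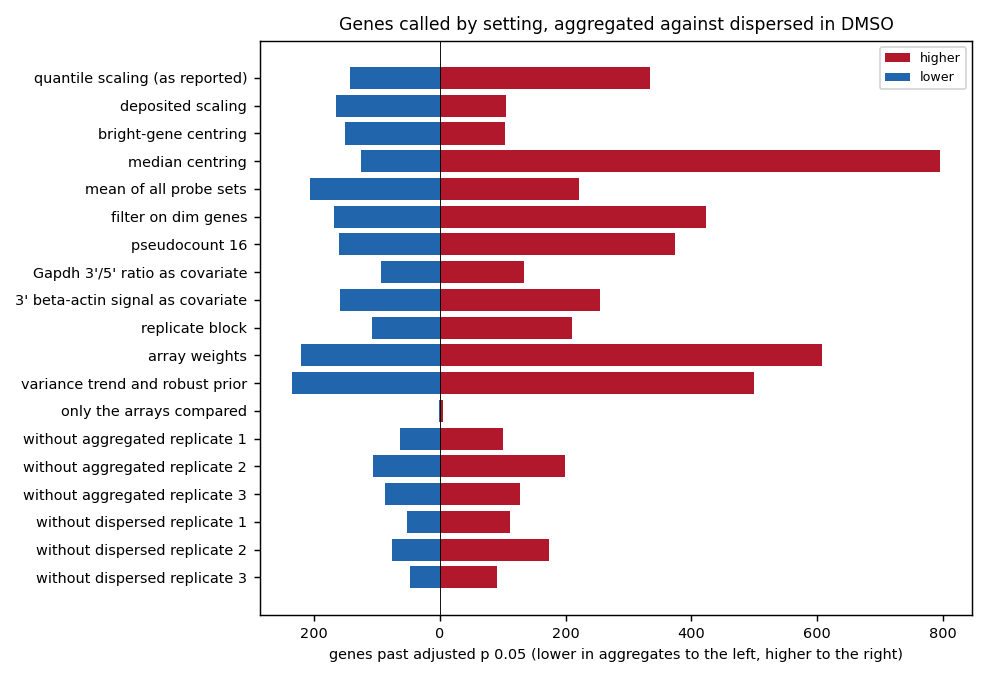
Genes past an adjusted p of 0.05 under each setting, with those higher in aggregates drawn to the right and those lower to the left. Quantile scaling gave 334 higher and 143 lower, the deposited scaling 106 and 166, median centring 796 and 126, and the 6 arrays alone 5 and 1.

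The 12 largest rises among genes above background in both groups included several secreted and matrix proteins. Sbspon, a secreted protein with somatomedin and thrombospondin domains, read 312, 219 and 294 on the aggregated arrays and 74.3, 70.1 and 63.7 on the dispersed arrays. Every aggregated array was above every dispersed array, and the change was 1.96 ± 0.24 (SE, adjusted p = 0.000807), or 3.89-fold. Fresh progenitors were higher than either, at 937, 761 and 946. Nell1, a secreted EGF-repeat protein, read 1562, 1333 and 1322 in aggregates and 624, 481 and 578 in dispersed cells, a change of 1.33 ± 0.18 (SE, adjusted p = 0.00139). Fbln7, a fibulin of the extracellular matrix, rose by 1.25 ± 0.25 (SE, adjusted p = 0.0162) from 80.9, 137 and 104 to 285, 230.3 and 242. Hs3st6, a sulfotransferase that modifies heparan sulfate chains, read 648, 427 and 409 against 154, 208 and 195, a change of 1.39 ± 0.16 (SE, adjusted p = 0.000737). For Nell1 and Hs3st6 the fresh cells again read highest, at 4135, 3834 and 3953 for Nell1 and 2001, 1724 and 1804 for Hs3st6.

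Receptors and surface proteins made up the next group of large rises. Cd83, a surface protein of the immunoglobulin family known from dendritic cells, read 638, 709.8 and 676 in aggregates and 248, 265 and 241 in dispersed cells. Its change of 1.42 ± 0.07 (SE, adjusted p = 2.11e-08) had the lowest p of the comparison, with a 95% interval 1.27 to 1.57. Ptpro, a receptor tyrosine phosphatase of podocytes, read 359, 234 and 243 against 108, 98.3 and 87.3, a change of 1.48 ± 0.32 (SE, adjusted p = 0.0255). The Ptpro call held in 11 of 19 alternative fits. Cdhr1, a cadherin-related protein of photoreceptors, was at 144, 134 and 141 in aggregates and 50.5, 53.4 and 55.9 in dispersed cells, 1.37 ± 0.28 (SE, adjusted p = 0.0196). Agtr2, the type 2 angiotensin receptor, rose by 1.32 ± 0.34 (SE, adjusted p = 0.0489), and kept its call in 7 of 19 alternative fits. Tacr3, a neurokinin receptor, read 3257, 3007 and 2974 against 1493, 1215 and 1146, 1.27 ± 0.29 (SE, adjusted p = 0.0301). In aggregates it lay above its fresh level of 1819, 2106 and 2061. The Tacr3 call held in 10 of 19 alternative fits and was lost whichever array of the comparison was left out. Inside the cell, the microtubule-binding protein Dcx (doublecortin) read 1168, 987 and 1012 against 402, 277 and 303, 1.70 ± 0.22 (SE, adjusted p = 0.00113), with fresh cells at 2428, 2575 and 2266. Of 3 further Dcx probe sets, 2 were called higher as well. Jpt1 rose by 1.27 ± 0.21 (SE, adjusted p = 0.00643), and the bHLH factor Scx, known from tendon progenitors, by 1.27 ± 0.23 (SE, adjusted p = 0.00961). For these last genes aggregated and fresh arrays overlapped: Jpt1 read 5132, 6215 and 5572 in aggregates and 5594, 5191 and 4233 in fresh cells, and Scx 539, 486 and 539 and 394, 553 and 699. None of the further probe sets of Tacr3, Jpt1 and Scx was called.

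**Figure D2:**
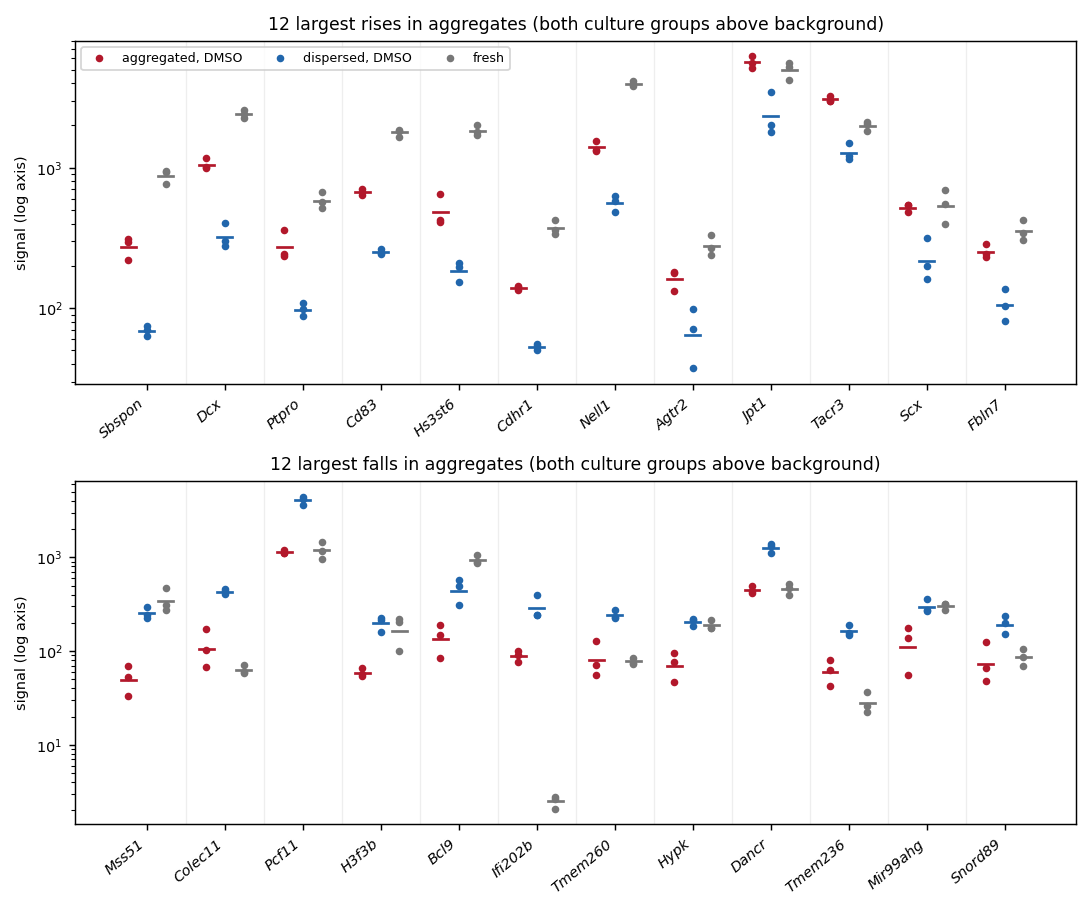
Quantile-normalised signal (log axis) on each array for the 12 largest rises and 12 largest falls, with points for the 3 arrays of a group and a line at the group mean of log2 values. Aggregated and dispersed arrays do not overlap for any of the 24 genes, which the rule for choosing them required. For Sbspon, Dcx and Cd83 the aggregates lie between dispersed and fresh cells. For Dancr and Pcf11 aggregated and fresh arrays lie close and the dispersed arrays are higher.

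The largest falls covered genes of mixed function. Mss51, known as a regulator of muscle mitochondria, read 33.6, 69 and 52.9 in aggregates and 297, 245 and 225 in dispersed cells, a change of -2.33 ± 0.27 (SE, adjusted p = 0.000737), and fresh cells were near the dispersed level at 275, 469.5 and 309. Colec11, a secreted collectin that recognises sugars, was at 67.1, 103 and 171 in aggregates and 402, 437 and 457 in dispersed cells, -2.02 ± 0.32 (SE, adjusted p = 0.00421). In fresh cells it read 59.1, 59.4 and 71.2, so here the dispersed cells stood apart from both other groups. Pcf11, a subunit of the complex that cleaves pre-mRNA at the 3' end, read 1122, 1124 and 1196 against 3612, 4419.6 and 4231, -1.83 ± 0.22 (SE, adjusted p = 0.000807), with fresh cells at 968, 1466 and 1163. The histone gene H3f3b fell by 1.74 on the log2 scale (adjusted p = 0.00643), and near-identical H3.3 copies in the genome make its identity on the array uncertain. Bcl9, a coactivator that binds beta-catenin, read 147, 189 and 85.1 against 489, 567 and 309.9, -1.72 ± 0.34 (SE, adjusted p = 0.0149). Without aggregated replicate 3, dispersed replicate 1 or dispersed replicate 2 the Bcl9 call was lost. Ifi202b, an interferon-inducible gene of a family of close copies, read 77.2, 101 and 90.2 against 240.2, 243 and 396, -1.67 ± 0.25 (SE, adjusted p = 0.00391), and was far below background in fresh cells at 2.64, 2.08 and 2.81. Tmem260 changed by -1.59 ± 0.24 (SE, adjusted p = 0.00391), Hypk, a chaperone of the ribosomal exit, by -1.53 ± 0.24 (SE, adjusted p = 0.00421), and Tmem236 by -1.42 ± 0.30 (SE, adjusted p = 0.023). The remaining members of the 12 were the non-coding RNAs Dancr, Mir99ahg at -1.41 ± 0.35 (SE, adjusted p = 0.044) and Snord89 at -1.38 ± 0.30 (SE, adjusted p = 0.0251).

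Genes that left or entered the range above background can only be given as bounds. Itga5, the fibronectin receptor subunit alpha 5, read 187, 159 and 222 in dispersed cells and 55, 37.4 and 26 in aggregates, at least 4.03-fold lower in aggregates (adjusted p = 0.00874). It was the 1 called integrin of 18 measured, and 3 other Itga5 probe sets were not called. Map3k8, a kinase that feeds ERK signalling, was at least 2.18-fold lower, Acad10 at least 2.34-fold lower and Adipoq at least 1.98-fold lower, with adjusted p values of 0.0356, 0.00238 and 0.0321. Amy1, 1 of several amylase copies, was at least 1.44-fold lower and Myl6b at least 1.36-fold lower. In the other direction, Blvrb, biliverdin reductase B, read 86.8, 79.9 and 70.9 in aggregates and 12.6, 15 and 13.8 in dispersed cells, at least 1.87-fold higher (adjusted p = 0.00564). The Wnt ligand Wnt5b read 115, 167 and 73.3 against 46.7, 47.6 and 29.6, at least 2.44-fold higher (adjusted p = 0.00643). Tfpi2, a secreted protease inhibitor, was at least 2.19-fold higher, Col23a1, a transmembrane collagen, at least 2.2-fold, Ooep at least 1.98-fold and Mybpc1 at least 1.46-fold. A further Wnt5b probe set was not called. With the probe sets of a gene averaged, Wnt5b, Itga5, Acad10, Col23a1 and Mybpc1 lost the call.

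Several non-coding RNAs and hosts of small nucleolar RNAs (snoRNAs) fell in aggregates, a group picked out after its values were seen. Of 1458 genes that RefSeq classes as long non-coding, 27 (1.85%) fell and 4 (0.274%) rose, against 112 falls (0.68%) and 328 rises (1.99%) among 16473 protein-coding genes. The median change was 0.15 in the non-coding and 0.11 in the protein-coding class, so the non-coding class as a whole was not lower. Among 14 genes named Snhg, which carry snoRNAs in their introns, 5 fell and 0 rose, and 7 had all aggregated arrays below all dispersed arrays, against 7.21% of all genes. In 1 Snhg gene, Snhg12, all aggregated arrays were higher, against 20.4% of all genes. Dancr read 493, 441 and 420.0 in aggregates and 1107, 1311 and 1401 in dispersed cells, -1.49 ± 0.14 (SE, adjusted p = 0.000102), with fresh cells at 516, 468 and 393. Taf1d, a polymerase I factor whose gene also hosts snoRNAs, read 1292, 1669 and 1538 against 3506, 3243 and 3692, -1.22 ± 0.12 (SE, adjusted p = 0.000102). Snhg4 read 233, 298 and 267 against 499.8, 463 and 479.5, -0.86 ± 0.13 (SE, adjusted p = 0.00421), and Snhg3 91.2, 76.8 and 53.4 against 164, 178 and 178, -1.25 ± 0.22 (SE, adjusted p = 0.00892). Snhg16, Snhg10 and Snhg5 changed by -0.72, -0.78 and -0.55, but when all probe sets of a gene were averaged Snhg10 and Snhg5 turned to 0.27 and 0.08. The imprinted RNAs Meg3 and Kcnq1ot1 fell too, with changes of -0.99 ± 0.15 (SE, adjusted p = 0.00391) and -0.86 ± 0.19 (SE, adjusted p = 0.0314), Meg3 from 6066, 4582 and 3657 to 2380.0, 2407 and 2259.

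Of these 9 genes (Dancr, Taf1d, Meg3, Kcnq1ot1 and 5 Snhg genes), 6 to 8 kept the call with 1 array left out, the 6 without dispersed replicate 3 and 8 without aggregated replicate 3. The call was kept by 7 with the Gapdh ratio as a covariate, by 5 with the probe sets of a gene averaged, and by 0 with only the 6 arrays fitted. Not all such RNAs fell. Neat1 changed by 0.35 ± 0.20 (SE, adjusted p = 0.387 by limma), with all aggregated arrays above all dispersed arrays. In BIO it rose by 0.91 ± 0.20 (SE, adjusted p = 0.00737 by limma). Gas5 was not called in DMSO, at -0.30 ± 0.12 (SE, adjusted p = 0.214 by limma). The nuclear RNA Malat1 read 3162, 2979 and 221 in aggregates against 8049, 7945 and 8473 in dispersed cells, -2.67 ± 0.95 (SE, adjusted p = 0.144), with the lowest value on the array whose 18S and 3' beta-actin signals were lowest. Probe sets with no gene or with several leaned the same way: of 10092, 479 were lower and 49 higher in aggregates (5.23% called). They were fitted together with the probe sets of 1 gene, so the adjustment differs from that of the 477 genes. Fitted alone, the 34945 probe sets of 1 gene gave 488 lower and 415 higher. How the Gapdh ratio, which differed between the groups, bears on these RNAs was not tested beyond that covariate.

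**Figure D3:**
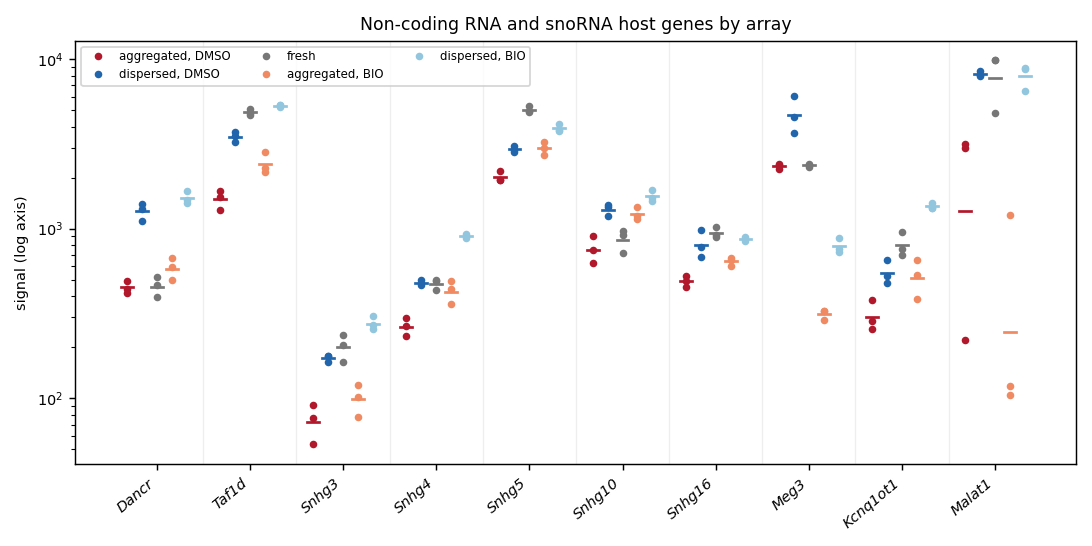
Signal (log axis) of 10 non-coding or snoRNA host genes on each array of 5 groups, with lines at group means of log2 values. Aggregated arrays lie below dispersed arrays in DMSO for all 10 genes shown, which were chosen after their values were seen; Malat1 spreads from 221 to 3162 within the DMSO aggregates.

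Of the genes that mark progenitor identity, 1 passed the test. Six2 itself read 4056, 4829.5 and 5163 in aggregates and 5171, 4365 and 4756 in dispersed cells, a change of -0.03 with a 95% interval -0.29 to 0.23, while fresh cells read 9269.6, 8752 and 8565. Cited1, another marker of the uninduced cap, was below background in both culture groups and read 201, 114 and 116 in fresh cells. Osr1 spread from 217 to 842 among the aggregated arrays, so its change of -0.29 ± 0.66 (SE, adjusted p = 0.86) has a wide 95% interval -1.68 to 1.10. In the list of 23 progenitor genes measured, 1 rose and 0 fell, with a median change of 0.09 beside 0.11 over all genes. The called member was Crym, a thyroid hormone-binding crystallin, at 1673, 1559.7 and 1289.8 in aggregates and 678, 710.3 and 763 in dispersed cells, 1.06 ± 0.15 (SE, adjusted p = 0.00242). Both were well under the fresh level of 7236, 6594 and 7491.

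Genes of the inductive programme did not pass the test. None of 22 pretubular aggregate and renal vesicle genes and none of 19 Wnt/beta-catenin targets was called in DMSO by limma, with medians of -0.13 and 0.14. At an unadjusted p under 0.05 the counts were 4 and 5, where 18.2% of all genes lay. Wnt4, the signal that drives the mesenchymal to epithelial step, read 653, 501 and 437 against 499, 455 and 468, 0.14 ± 0.18 (SE, adjusted p = 0.721), with a 95% interval -0.23 to 0.52. Lhx1, a renal vesicle factor, was below background in both groups. The feedback gene Axin2 read 323, 356 and 375 against 219, 352 and 208; dispersed replicate 2 lay among the aggregated values and the change was 0.48 ± 0.17 (SE, adjusted p = 0.142), with a 95% interval 0.12 to 0.83. Lef1 changed by -0.03 with a 95% interval -0.39 to 0.34. Sp5 was below background in both groups. None of 15 Notch pathway genes passed limma's test either, 6 at an unadjusted p under 0.05. Dll4, a Notch ligand, had the lowest adjusted p at 0.135 and read 104, 84.4 and 93.2 against 81.5, 69.6 and 47.6. Pax8, a nephron lineage factor, read 381, 368 and 369 in aggregates and 276, 284 and 285 in dispersed cells, 0.40 ± 0.11 (SE, adjusted p = 0.0692), without overlap but short of the threshold.

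Adhesion and cytoskeletal genes held few calls. None of 23 cadherin and catenin genes, 24 tight and gap junction genes or 26 contractile and actin genes was called by limma. At an unadjusted p under 0.05 lay 4, 2 and 0 of them, beside 18.2% of all genes. Their medians were 0.02, -0.02 and -0.00036. Cdh2, N-cadherin, read 5892, 4722 and 3503 against 4082, 4558 and 3992, 0.13 ± 0.17 (SE, adjusted p = 0.741), and Cdh1, E-cadherin, 81.4, 134 and 165 against 70.2, 221 and 111, with an error of 0.60 and a 95% interval -1.25 to 1.29. Afdn, which links nectins to actin, was nearest to a call among the cadherin list at -0.35 ± 0.09 (SE, adjusted p = 0.0611). The claudin Cldn9 read 4892, 3788 and 3894 against 2451, 2879.7 and 3255, 0.55 ± 0.14 (SE, adjusted p = 0.0552). Cnn1, a smooth muscle calponin, had the lowest p of the contractile list, 0.306. Of 27 YAP/TAZ targets, genes switched on by spread, stretched cells, 1 fell and 0 rose, with a median of -0.13. The faller, Cavin2, a coat protein of caveolae, read 73.2, 136 and 124 against 231, 242 and 261, -1.18 ± 0.26 (SE, adjusted p = 0.0268); averaging its 3 probe sets lost the call. Esrp2, a splicing regulator of epithelia, was the 1 gene called among 22 keratins and epithelial regulators, 0.47 ± 0.11 (SE, adjusted p = 0.0329), and lost the call on the deposited scale. Col18a1, a basement membrane collagen, was the 1 called of 26, 0.51 ± 0.11 (SE, adjusted p = 0.0314), and lost it there as well. The Cavin2, Esrp2 and Col18a1 calls were all lost without dispersed replicate 1 or 3, and 2 of the 3 were lost with any other of the 6 arrays left out.

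Single stress genes fell in aggregates and none rose. Of 14 heat shock genes, 1 fell and 0 rose, all 14 changes were negative, from -1.07 to -0.0046, and 7 had no overlap between the groups, against 7.21% of all genes in that direction. Their median was -0.17, and -0.02 after median centring. Hspa1a, the inducible Hsp70, read 1074, 1216 and 1346 in aggregates and 2505, 2861 and 2272 in dispersed cells, with fresh cells between at 1529, 1606 and 1547, and changed by -1.07 ± 0.17 (SE, adjusted p = 0.00426); its near-identical copy Hspa1b may share the signal. Among 32 genes of the unfolded protein response and ATF4, 2 fell and 0 rose, where 0.786% of all genes fell. Ppp1r15a, which brings back translation after stress (GADD34), read 445, 543 and 602 against 875, 1135 and 1203, -1.01 ± 0.20 (SE, adjusted p = 0.0149), with fresh cells at 697, 510.4 and 441. Dnajb9, a chaperone of the endoplasmic reticulum, read 2447, 2564 and 2445 against 3482, 3808 and 3834, -0.58 ± 0.07 (SE, adjusted p = 0.00113). The list as a whole had a median of 0.10, with 21 of 32 members above 0.

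The promoters of Hspa1a and Ppp1r15a are shown because these genes fell in aggregates and each holds a motif known from stress or cAMP response. They come from RefSeq on GRCm38.p6, both genes on the minus strand, and are written 5' to 3' in the gene's direction from 250 bases before the gene start to 50 after it with the motif in capitals. Hspa1a lies at chr17:34972107-34972406 and holds the heat shock pair GAANNTTC, and Ppp1r15a lies at chr7:45526219-45526518 and holds the cAMP response element TGACGTCA, which starts 12 bases before the gene start.
Hspa1a: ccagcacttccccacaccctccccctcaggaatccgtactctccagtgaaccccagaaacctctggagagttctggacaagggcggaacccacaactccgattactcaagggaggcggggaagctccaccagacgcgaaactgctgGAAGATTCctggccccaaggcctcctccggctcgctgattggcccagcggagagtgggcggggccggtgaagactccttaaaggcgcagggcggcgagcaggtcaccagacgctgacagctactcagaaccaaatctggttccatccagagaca
Ppp1r15a: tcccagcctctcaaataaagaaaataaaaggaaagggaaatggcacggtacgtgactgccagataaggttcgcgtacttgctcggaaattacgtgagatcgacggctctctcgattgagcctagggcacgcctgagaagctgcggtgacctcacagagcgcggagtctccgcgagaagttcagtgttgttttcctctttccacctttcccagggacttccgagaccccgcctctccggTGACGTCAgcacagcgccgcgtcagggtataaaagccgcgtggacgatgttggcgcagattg
Both motifs read the same on either strand. Of 27025 genes with such a promoter, 9.04% hold the heat shock pair and 2.03% the cAMP response element. The pair was found in 9 of 11 heat shock genes with a promoter. Other motifs were searched on both strands: the TEAD motif GGAATG was in 8 of 20 YAP/TAZ targets (16.6% of all genes), the CArG box of serum response factor in 7 of 21 contractile genes (1.81%), and the hypoxia element ACGTG in 22 of 31 hypoxia and glycolysis genes (21.8%). The ACGTG letters overlap neither of the marked sites, and a match is a description of letters only. These 3 lists held 1 called gene in DMSO, Cavin2.

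Immediate early, interferon and inflammatory genes gave single calls in both directions. Klf4, a Kruppel-like factor, read 1277, 1541 and 2068 in aggregates and 3053, 3059.7 and 3539.5 in dispersed cells, -1.01 ± 0.17 (SE, adjusted p = 0.00579), and 784, 832 and 859 in fresh cells. Ier2, an immediate early gene, went the other way at 2164, 2133 and 2456 against 1569, 1484 and 1612, 0.53 ± 0.11 (SE, adjusted p = 0.0196). These were the 2 calls among 23 immediate early genes, whose median was -0.05. All 13 interferon response genes measured had negative changes, with a median of -0.33, and 1 fell: Ifit2 read 208, 178 and 258 against 264, 365 and 392, -0.66 ± 0.14 (SE, adjusted p = 0.0232), and 978, 976 and 953 in fresh cells. Ifit2 lost the call without dispersed replicate 2 or 3 and without aggregated replicate 1 or 2. The list's median rested on dispersed replicate 3, being 0.02 without it and -0.62 and -0.58 without dispersed replicates 1 and 2. In 2 of the 13 all aggregated arrays were below all dispersed arrays, against 7.21% of all genes. Il33, an alarmin of the interleukin-1 family, was the 1 call among 24 NF-kB targets and chemokines, at 789.9, 761 and 768 against 453, 382 and 401, 0.91 ± 0.14 (SE, adjusted p = 0.00421).

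The genes of growth and metabolism that were called rose in aggregates, with at most 3 calls in a list. Over all genes, 1.84% were called higher and 0.786% lower. Of 21 genes of the G1 and S phases, 3 rose and 0 fell: Gins2, a subunit of the replicative helicase, by 0.54 ± 0.12 (SE, adjusted p = 0.0255), Chaf1b, of the histone loader CAF-1, by 0.46 ± 0.11 (SE, adjusted p = 0.0316), and thymidine kinase Tk1 by 0.65 ± 0.15 (SE, adjusted p = 0.033). Tk1 read 564, 413 and 517 against 345, 265 and 341. All 3 lost the call on the deposited scale and without dispersed replicate 1 or 3 or aggregated replicate 1. Of 23 genes of the G2 and M phases, 0 were called by limma and 4 had an unadjusted p under 0.05, beside 18.2% of all genes. In this list 20 had positive changes and 11 had all aggregated arrays above all dispersed arrays, against 20.4% of all genes. The same held for 10 of 21 G1 and S genes, 11 of 23 oxidative phosphorylation genes and 9 of 18 stromal genes. In the other direction the counts for these 3 lists were 0, 1 and 2. Further lists held such genes too. All aggregated arrays were lower in 8 of 28 protease, 8 of 33 hypoxia and glycolysis, 6 of 27 YAP/TAZ and 6 of 23 immediate early genes. Of all genes 7.21% were, and the counts of these lists in the other direction were 3, 5, 1 and 1. Of 31 interstitial matrix genes, 9 were higher and 6 lower without overlap. The G2 and M median was 0.21, and 0.13 on the deposited scale. Ube2c, a mitotic ubiquitin enzyme, read 2083, 1951 and 1815 against 1430.2, 1283 and 1214, 0.58 ± 0.19 (SE, adjusted p = 0.111). None of 23 cell cycle inhibitors and p53 targets was called by limma, 2 at an unadjusted p under 0.05. Mdm2, the p53 ubiquitin ligase, read 1584, 2129.7 and 1989 against 2992, 2531 and 2826, -0.56 ± 0.16 (SE, adjusted p = 0.0737). Mvd, of sterol synthesis, rose by 0.59 ± 0.13 (SE, adjusted p = 0.0268) as the 1 call of 19, and Acss2, which makes acetyl-CoA from acetate, by 0.51 ± 0.13 (SE, adjusted p = 0.0498) as the 1 call of 15 in fatty acid synthesis, both losing it on the deposited scale and with dispersed replicate 1 or 3 or aggregated replicate 1 or 3 left out. None of 33 hypoxia and glycolysis genes and none of 23 oxidative phosphorylation genes was called by limma, 6 and 6 at an unadjusted p under 0.05. The glucose transporter Slc2a1 read 3496, 3024 and 3264 against 2205, 2736 and 2446, 0.41 ± 0.12 (SE, adjusted p = 0.083), and Sdhb changed by 0.27 ± 0.10 (SE, adjusted p = 0.144).

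Among growth factor genes, Igfbp5, an insulin-like growth factor binding protein, read 5109.6, 4501 and 4255 in aggregates and 2648, 3152 and 2689.6 in dispersed cells, 0.71 ± 0.10 (SE, adjusted p = 0.00366). Igfbp4, of the same family, fell by 0.38 on the log2 scale (adjusted p = 0.0171), from 5427, 5664 and 5294 to 4507, 4025 and 4042. Id4, an inhibitor of bHLH factors that BMP signals regulate, read 2237, 2353 and 2079.7 against 3610.5, 3315 and 3045, -0.58 ± 0.11 (SE, adjusted p = 0.0101), the 1 call of 26 BMP and TGF-beta genes. No gene was called among 19 FGF and MAPK feedback, 18 Eph and ephrin, 16 prostaglandin, 20 apoptosis, 31 interstitial matrix, 28 protease or 14 mesenchymal genes by limma. At an unadjusted p under 0.05, where 18.2% of all genes lay, the counts in that order were 5, 5, 1, 5, 7, 4 and 0. In these lists, Col1a2 at 0.66 ± 0.20 (SE, adjusted p = 0.0927), Timp3 at -0.51 ± 0.14 (SE, adjusted p = 0.0577), Ptger4 at -0.51 ± 0.21 (SE, adjusted p = 0.217), Efnb1 at 0.32 ± 0.09 (SE, adjusted p = 0.0866) and Bcl2l11 at 0.28 ± 0.08 (SE, adjusted p = 0.0719) were among the nearest to a call. Fgf20 was below background in both groups. Tcf4, the bHLH factor of lowest p in the mesenchymal list, changed by 0.11 ± 0.07 (SE, adjusted p = 0.4).

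Among genes of the other cells that a kidney sort could hold, calls lay in the stromal and podocyte lists alone. Over all genes, 1.84% were called higher and 0.786% lower. The summed signal of 8 stromal markers was 8327 to 8854 on the aggregated arrays and 8046 to 8470 on the dispersed arrays, ranges that overlap. Within the longer list of 18 stromal genes 2 rose: Nr2f1, an orphan nuclear receptor, at 1099, 1007 and 749 against 502, 547 and 493, 0.87 ± 0.13 (SE, adjusted p = 0.00391), and Meis1, a homeobox factor, at 0.45 ± 0.09 (SE, adjusted p = 0.0149). Among 11 podocyte genes, Ptpro and Plce1 rose, Plce1 by 0.69 ± 0.16 (SE, adjusted p = 0.0356); the 3 defining podocyte markers summed to 768 to 1034 in aggregates and 628 to 648 in dispersed cells, and none of them was called. No podocyte gene was called without dispersed replicate 1, 2 or 3, without aggregated replicate 1 or 3, or with the Gapdh ratio as a covariate, and Plce1 also lost the call on the deposited scale. The part of the defining markers in the Ptpro and Plce1 values was not tested. No endothelial, leukocyte, erythroid, proximal, loop of Henle, ureteric bud or neuronal gene was called by limma. In that order 3, 0, 0, 0, 1, 1 and 1 had an unadjusted p under 0.05, beside 18.2% of all genes. Gata3 of the ureteric bud and the erythroid markers Hba-a1 and Alas2 were below background in both culture groups, as was the proximal tubule gene Miox. Umod, of the loop of Henle, read 84.6, 63.8 and 57.9 against 40.1, 44.4 and 39.7 (adjusted p = 0.1), Egfl7, of endothelium, 363, 253 and 363 against 219, 201 and 225 (0.0637), the macrophage gene C1qb 37.4, 69.8 and 83.7 against 17.2, 33.7 and 31.1 (0.361) and Ngfr 142, 133 and 166 against 86, 100.1 and 98.3 (0.0672). For the labelled cell type itself, 9 of 10 defining progenitor markers were above background in both culture groups, and their sum was 12444 to 12937 in aggregates, 11213 to 12056 in dispersed cells and 41217 to 42672 in fresh cells.

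**Figure D4:**
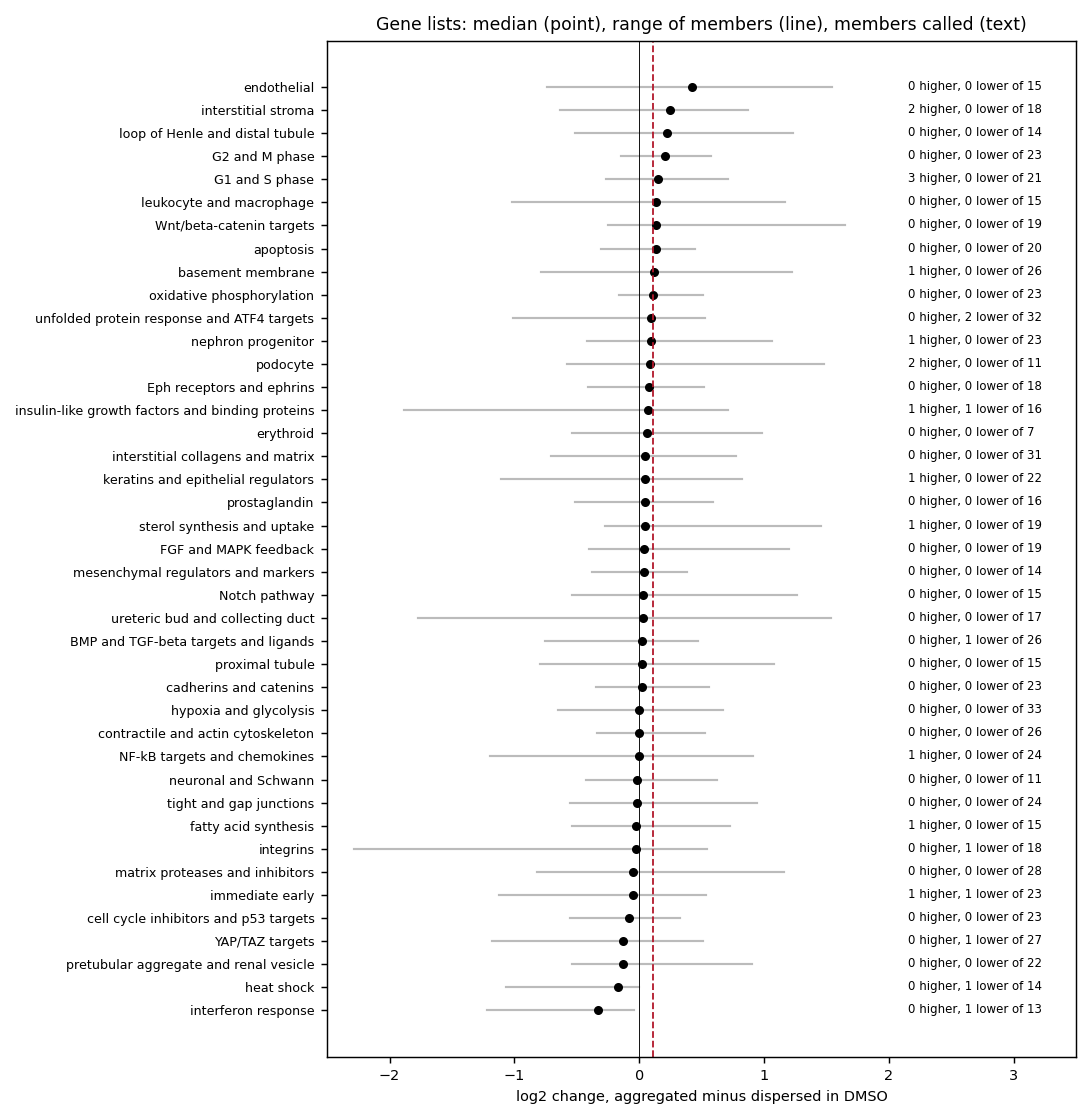
Change between aggregated and dispersed cells in DMSO (log2) for 41 gene lists, with a point at the median, a line over the range of members and the number of members called at the right. The dashed line is the median of all genes, 0.11; no list had more than 3 called members in 1 direction, and the heat shock and interferon lists lie wholly below 0, the interferon list with a median of 0.02 when dispersed replicate 3 is left out.

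The same contrast in BIO uses 6 other arrays. There 3135 genes (17.2%) were called, 2289 higher (12.6%) and 846 lower (4.65%), and array measures again separated the groups. The Gapdh ratio was 11.4 to 15.2 on the aggregated and 9.29 to 10.5 on the dispersed arrays, the beta-actin 3' to 5' ratio 15.5 to 19.6 against 10.6 to 11.5, the 3' beta-actin signal 2669 to 5410 against 8628 to 9219, and the 18S signal 802 to 2841 against 3851 to 4774. With the Gapdh ratio as a covariate 1087 genes were called in BIO, and with the 3' beta-actin signal 356. Of the 334 genes that rose with aggregation in DMSO, 183 (54.8%) also rose in BIO, which is 7.99% of the BIO rises. Of the 143 that fell, 70 (49.0%) also fell in BIO, which is 8.27% of the BIO falls, and 18 genes were called in opposite directions. Dancr and Taf1d also fell in BIO, with changes of -1.38 ± 0.14 (SE, adjusted p = 3.15e-05) and -1.14 ± 0.12 (SE, adjusted p = 2.70e-05), and the 2 media differed for Dancr by 0.11 ± 0.20 (SE). Dancr read 669.7, 592 and 498 in BIO aggregates and 1476, 1419 and 1658 in BIO dispersed cells. Meg3 fell in BIO from 763, 725 and 885 to 327, 290.0 and 326, -1.33 ± 0.15 (SE, adjusted p = 5.12e-05). Fbln7, Cdhr1, Scx, Ptpro, Hs3st6 and Crym also rose in BIO, Fbln7 by 1.67 ± 0.25 (SE, adjusted p = 0.000456) and Crym by 0.72 ± 0.15 (SE, adjusted p = 0.00438). Bcl9 and H3f3b also fell, with changes of -2.32 ± 0.34 (SE, adjusted p = 0.000379) and -1.80 ± 0.29 (SE, adjusted p = 0.000914). Malat1 was far lower in BIO aggregates, 104, 118 and 1203 against 8789.7, 8875 and 6500.1, and the other largest BIO falls, Srrm2, Thoc2, Phxr4, Hoxd3os1 and Zfhx3, had lower but uncalled values in DMSO aggregates, with adjusted p from 0.0675 for Phxr4 to 0.286 for Zfhx3.

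**Figure D5:**
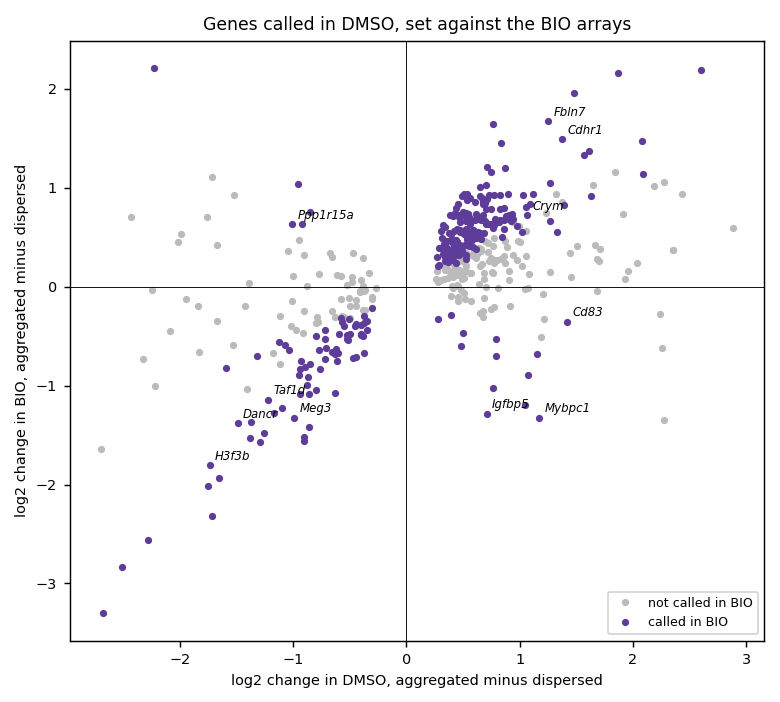
Change with aggregation in BIO against change with aggregation in DMSO (log2) for the 477 genes called in DMSO, coloured by whether limma called them in BIO too. Of the rises 183 and of the falls 70 were called the same way in BIO, and 18 genes, among them Igfbp5, Cd83, Mybpc1 and Ppp1r15a, were called the opposite way.

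The difference between the 2 media was tested as an interaction, which called 285 genes (1.57%), 132 of them with a more positive change in BIO (0.726%) and 153 with a more negative one (0.841%), and 58 of the 285 were among the 477. Cd83 rose with aggregation in DMSO and fell with it in BIO, from 4944, 4818 and 4774 to 3884, 3834 and 3674, an interaction of -1.77 ± 0.10 (SE, adjusted p = 1.38e-07). Igfbp5 read 1175, 1029.8 and 1028 in BIO aggregates and 2665, 2436 and 2772 in BIO dispersed cells, an interaction of -1.99 ± 0.15 (adjusted p = 4.19e-06). Ppp1r15a, lower in DMSO aggregates, was higher in BIO aggregates, 542, 648 and 629 against 426, 349 and 396. Sbspon rose in DMSO but read 561, 465 and 543 against 448, 425 and 530.1 in BIO, where both levels were above either DMSO group. Lama4, Hey1 and Wnt5a, which also passed the interaction test, were not called in DMSO, whereas Colec11, Mybpc1 and Abcc9 passed both tests. Hey1, a Notch effector, read 411, 444 and 465 in DMSO aggregates and 510.4, 440.5 and 444 in DMSO dispersed cells, and Wnt5a 121, 184 and 150.2 and 130.1, 170.0 and 107. Lhx1 reached 198, 345 and 177 in BIO aggregates and stayed below background in BIO dispersed cells, as it did in both DMSO groups.

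Both cultures had moved far from fresh cells: 5990 genes (32.9%) differed between DMSO aggregates and fresh cells and 6048 (33.2%) between dispersed and fresh cells. These comparisons share the fresh arrays, so only their values are set side by side. Crym changed by -2.24 in aggregates and -3.31 in dispersed cells relative to fresh, Nell1 by -1.50 and -2.83, and Il33 by -1.70 and -2.62. Klf4 changed by 0.95 and 1.96, and Hs3st6 by -1.92 and -3.31. In each of these 5 genes the aggregated mean lay between the fresh and the dispersed mean. Six2 changed by -0.93 and -0.90. Other called genes did not follow the order of those 5, among them Tacr3, Ifit2, Mss51, Bcl9, Acad10, H3f3b, Hypk, Itga5 and Tfpi2. Mss51 changed by -2.76 in aggregates and -0.43 in dispersed cells, Bcl9 by -2.80 and -1.08, and Tfpi2 by 3.74 and 1.64. The genes of either kind are examples, and the called genes in each order were not counted.

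Probe sets set a further limit. Of the 477 called genes, 274 had other probe sets on the array. In 40 of these genes another probe set was called the same way and in 1 the opposite way, and 392 of the 529 other probe sets (74.1%) had the same sign. Among the 59 named genes called, 20 lost the call when all probe sets of a gene were averaged, Colec11, Klf4, Nell1, Ptpro, Itga5 and Igfbp5 among them.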

How the data were processed

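Signal was read from the authors' deposited value table of 21 arrays, a linear intensity per probe set from 0.1 to 18025.33; its software and scaling are not stated in the labels or headers. Per the labels' protocols, RNA from 40000 cells was amplified in 2 rounds. Values were taken as log2(value + 1) and quantile normalised. Of 45101 probe sets, 34945 had 1 gene symbol, 34741 through RefSeq (GRCm38.p6) and 204 from the platform table alone, 932 had several and 9160 none, and 64 were controls; the brightest probe set on average stood for each of 18193 genes, and single listed genes without a match are not analysed here. The script was tested on simulated data. limma 3.58.1 (R 4.3.3) fitted a mean for each of 7 groups on the 21 arrays, with 14 residual and 1.62 prior df, with Benjamini-Hochberg adjustment over all genes. Tables and figures were made with Python 3.11.15, pandas 2.3.3 and matplotlib 3.10.9. Folds are on the log2(value + 1) scale, which understates low genes; with 1 group below background the bound uses the threshold of 41.8. The number of arrays limits the precision.

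Named genes were the 12 largest rises and 12 largest falls with both groups above background and without overlap, the 6 rises and 6 falls of lowest p with 1 group below background, up to 4 called members of each of 41 lists (or the member of lowest p), the 6 largest interactions and BIO changes in each direction, and 9 fixed progenitor, Wnt and cadherin genes. Non-coding RNAs were added after their values were seen. The members and lists were chosen with earlier results of these data known. Alternatives covered scaling, probe sets, dim genes, pseudocount, array weights, RNA-quality covariates, a replicate block and each array left out; centring on bright genes was added after seeing the data.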

Additional observations from a re-analysis of the deposited data

Results flagged for a closer look

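The effect of aggregation differed between DMSO and BIO in 31 of the 112 genes named by rule. The test was an interaction term with adjusted p under 0.05 over all 18193 genes, of which 285 (1.57%) passed. The rule named some of the 112 for their large interaction or large BIO change, so the choice itself partly set how many passed. The share among the 112 therefore cannot be compared with that of all genes. Each value is the change with aggregation in BIO minus that in DMSO, on the log2 scale. Among genes that rose in DMSO, the interaction was Sbspon -1.80, Dcx -1.44, Cd83 -1.77, Mybpc1 -2.49, Il33 -1.11, Igfbp5 -1.99 and Abcc9 -2.24 in sequence, so aggregation raised each less in BIO or lowered it. Among genes that fell in DMSO it was Mss51 1.60, Colec11 2.47, Ifi202b 2.09, Acad10 1.43, Ppp1r15a 1.64, Ifit2 0.96 and Id4 0.69. The other genes were not called in DMSO. Those more raised by aggregation in BIO were Pax8 1.29, Lama4 3.58, Papss2 2.72, Frat2 2.59, Hey1 2.26, Pdgfrb 2.16, Heyl 1.98, St8sia6 2.04, Svopl 2.74 and Lhx1 5.44. Those more lowered by it in BIO were Tcf4 -0.57, Fgf20 -2.96, Epha7 -3.02, Irx5 -2.47, Ror1 -2.32, Stard8 -2.26 and Wnt5a -2.24. Lhx1, Svopl and Fgf20 were below background in both DMSO groups, so their size depends on values with no order there.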

How the results depend on the processing

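For aggregation in DMSO (477 genes), 272 genes passed on the deposited scale, 922 after median centring, 254 after centring on genes above background on all arrays (chosen after seeing the data), 903 of all probe sets, 829 with array weights, 735 with a variance trend and robust prior, 109 at 2-fold, 227 with the Gapdh ratio as a covariate and 6 with only the arrays compared. Leaving out 1 array gave 138 to 306 genes: 164 and 138 without dispersed replicates 1 and 3, 249 without dispersed replicate 2, and 164, 306 and 215 without aggregated replicates 1, 2 and 3. The higher share was 70.0% as reported, 39.0% on the deposited scale, 40.6% after bright-gene centring, 86.3% after median centring and 51.7% after averaging probe sets (222 higher, 207 lower). Of the 59 named and called genes none changed direction under these scalings; 48 stayed past the threshold on the deposited scale, 38 with the Gapdh ratio, 54 with the 3' beta-actin signal, 39 with averaged probe sets, 4 with only the arrays compared, and 34, 37 and 33 without dispersed replicates 1, 2 and 3 and 38, 46 and 39 without aggregated replicates 1, 2 and 3. For aggregation in BIO (3135 genes) the counts were 2059 on the deposited scale, 5641 of all probe sets, 2040 with only the arrays compared, 636 at 2-fold, 1087 with the Gapdh ratio, 356 with the 3' beta-actin signal, and 1907 to 2673 with 1 array left out. For the interaction (285 genes) they were 150 with averaged probe sets, 545 with array weights, 163 at 2-fold, 120 with the 3' beta-actin signal, and 171 to 277 with 1 array left out. The comparisons with fresh cells stayed within 1.5 times their counts under the settings run. Same-numbered DMSO arrays had correlations of deviations of -0.21, -0.10 and 0.03, and differently numbered ones -0.18 to 0.22. Deviations from a mean of 3 arrays sum to 0 within a group, so these values cannot settle whether arrays were paired. With the replicate number as a block, 319 genes passed. The cause of these shifts was not tested.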
